A study of Mus musculus with 30 samples.

Results

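The comparison set 3 bead arrays of subcutaneous fat from male mice labelled Box1, whose growth hormone receptor was mutated in the Box1 region, against 3 arrays of the same depot from mice labelled WT. These 6 arrays were chosen by their labels from the 30 arrays of the series, 15 of fat and 15 of liver. All mice of both groups were 4 months old and had been starved overnight before they were killed. Fat of receptor knockout mice (KO) and of mice whose receptor ends early at amino acid 391 or 569 was used for side by side values, with 3 arrays of each. The labels call the mice transgenic and give no strain, promoter or founder line, and nothing in them ties an array to an animal. The spread behind every p-value is that between these arrays, which may be technical.

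The growth hormone receptor has no kinase of its own. It holds the kinase JAK2 at the membrane-proximal Box1 segment, and on hormone binding JAK2 phosphorylates the receptor tail, where STAT5 docks and is activated. In fat, growth hormone is known to favour lipolysis, to restrain the action of insulin and to drive local transcription of Igf1 and of feedback inhibitors such as Socs2 and Cish.

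Each deposited value is a ratio of a probe to its own median over the 15 fat arrays, so a ratio of 1 is the middle of the fat arrays and no absolute level remains. Differences below are Box1 minus WT on the log2 scale, fitted with limma over the 15 fat arrays, ± SE, and a gene is called where its Benjamini-Hochberg adjusted p over all 46643 probes is under 0.05. In bulk fat, fewer cells of a type and less RNA per cell cannot be told apart. Box1 fat lay on a slide with Box1 liver, WT and 569 fat shared another slide, and 391 and KO fat shared a further slide. Slide and genotype therefore cannot be told apart in any comparison of Box1 with another group.

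A single probe was called, that of Sctr, which was lower in Box1 fat. Called probes made up 0.00214% of all probes in the lower direction and 0% in the higher direction. At an unadjusted p under 0.05, limma gave 1467 probes higher in Box1 (3.15%) and 651 lower (1.4%). The 3 Box1 arrays all lay above the 3 WT arrays for 3123 probes (6.7%) and all below them for 1633 (3.5%). With 1 probe standing for each of 19406 genes, 719 genes were higher (3.71%) and 280 lower (1.44%) at an unadjusted p under 0.05, and all Box1 arrays lay above all WT arrays for 1399 genes (7.21%) and below them for 656 (3.38%). These shares are the background for the gene lists below. They moved with the arrays in the fit, from 2.35% to 7.42% for the higher genes and from 1.40% to 3.53% for the lower ones over the alternatives, and the lists' counts moved too. The median difference over all genes was 0.03, with 11198 differences positive and 8208 negative.

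**Figure D1:**
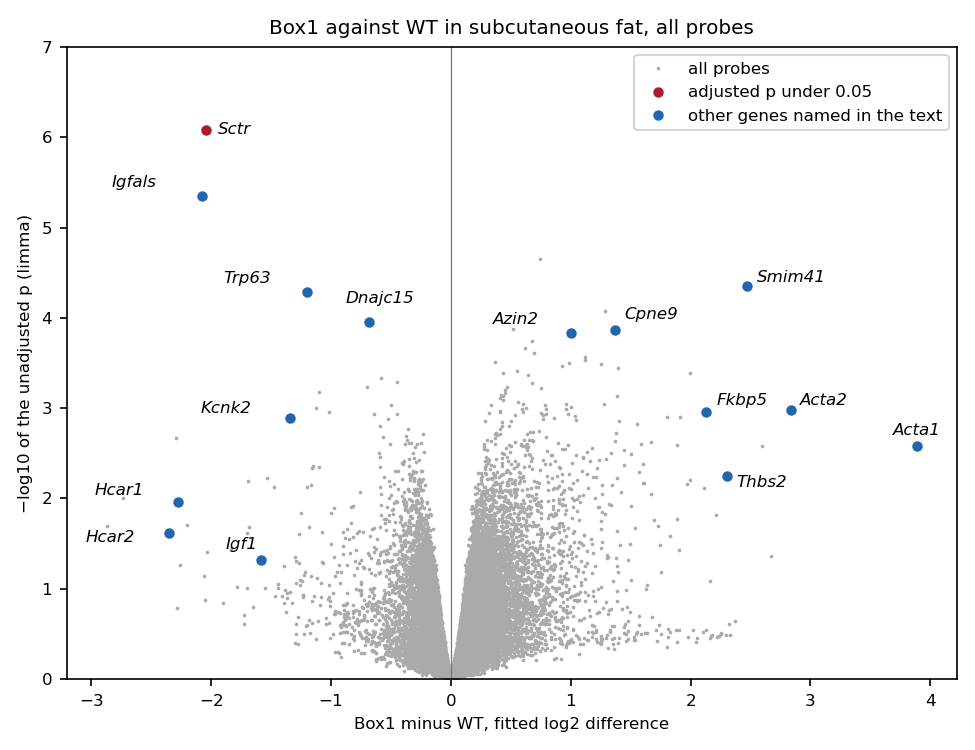
Fitted log2 difference between Box1 and WT fat (horizontal axis) against −log10 of limma's unadjusted p (vertical axis), 1 grey point per probe for 46643 probes. Sctr, the red point, is the called gene; Igfals lies next to it at a difference of −2.08, and Acta1 has the largest positive difference at 3.88 with an adjusted p of 0.95.

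Several of the 6 arrays stood apart in transcripts of other tissues. The skeletal muscle list had a median log2 ratio of 4.25 in the third Box1 array, where 31 of its 34 members exceeded 1, against −0.68 and −0.71 in the other Box1 arrays and −1.04 to −0.74 in the WT arrays. Its summed ratio ranged from 18.8 to 625.8 in Box1 and from 18.0 to 19.0 in WT. The lymphocyte list was low in the third Box1 array (median −1.89) and in the second WT array (−1.60), while the other 4 arrays lay between 0.29 and 0.70. Its summed ratio over 27 members ran from 10.1 to 41.3 in Box1 and from 11.9 to 44.9 in WT. Hepatocyte transcripts were high in the second Box1 array (median 2.35, 8 of 13 members over 1) and in the second WT array (1.28, also 8 of 13), with summed ratios of 10.7 to 214.3 in Box1 and 9.69 to 66.5 in WT. The third WT array followed, with a median of 0.73 and 3 of 13 over 1. The second WT array had 7 of 24 epithelial markers over 1, and no Box1 array had any. None of these ratios says whether a marker was absent from an array, since the files hold no level.

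**Figure D2:**
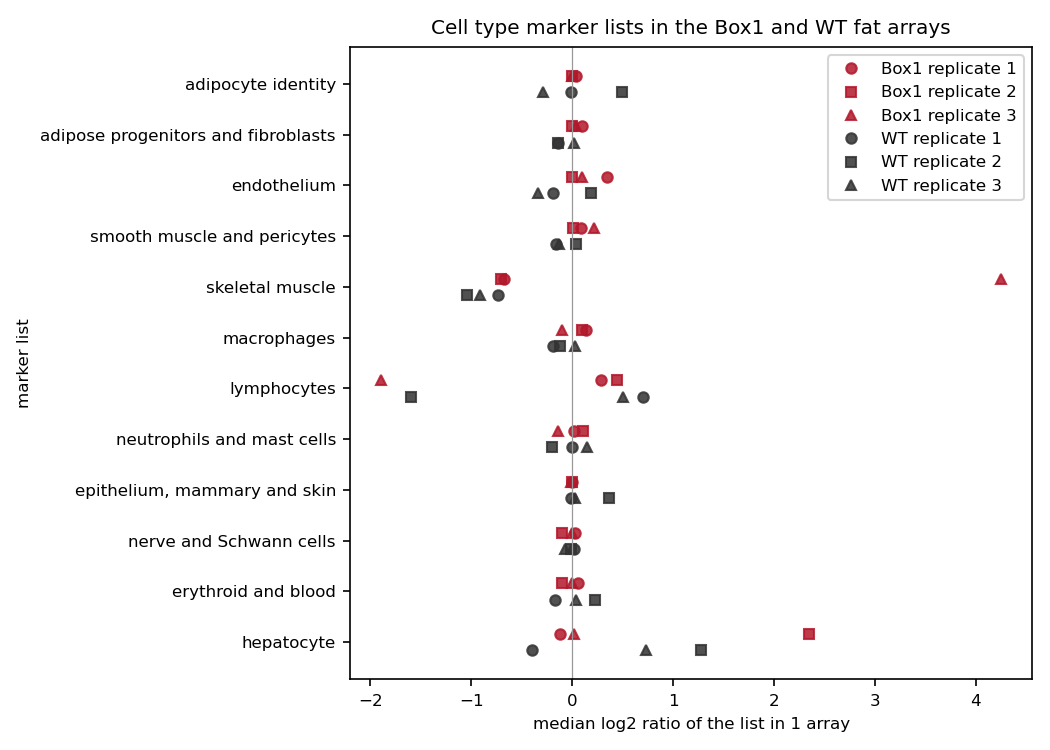
Median log2 ratio of each cell type marker list (rows) in each of the 3 Box1 arrays (red, upper line of a row) and the 3 WT arrays (black, lower line), with a symbol for each replicate. The third Box1 array lies at 4.25 for skeletal muscle, and the lowest Box1 and WT points for lymphocytes lie at −1.89 and −1.60.

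The tissue label was set against 25 measured markers of adipocyte identity. Their median log2 ratio was 0.04, 0.00 and 0.00 in the Box1 arrays, against −0.01, 0.50 and −0.29 in the WT arrays, so the groups overlapped and the second WT array was highest. None of the 25 was called by limma, 1 was higher and 0 were lower at an unadjusted p under 0.05. Of the differences 15 were negative and 10 positive, from −1.29 to 1.30, with a median of −0.23, which was 0.07 without the second WT array.

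Ghr, the mutated gene, was read by a pair of probes whose place in the transcript is not known here, so they may check nothing about the mutation. The more variable probe gave ratios of 0.61, 0.44 and 1.13 in Box1 fat, against 1, 2.05 and 1.64 in WT fat, a difference of −1.16 ± 0.73 (limma adjusted p = 1). The other probe gave 1.43, 0.96 and 0.44 in Box1 fat, against 1.09, 1.97 and 1.47 in WT fat. The groups overlapped for both probes.

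Promoter windows of Igfals and Cish are shown first because both genes are reported STAT5 targets on the list of genes described first. They run from 250 bases before to 50 bases after an annotated start in RefSeq GRCm38.p6, on the plus strand, and capitals mark each match to TTCNNNGAA, the spaced palindrome that STAT5 dimers bind. Igfals has several annotated starts, and the window printed, chr17:24877981-24878280, holds a match that begins at −58 from its start. Of its other windows, 1 holds a match at −236 and is not shown. The Cish window, chr9:107296409-107296708, holds a pair of matches that begin at 1 and 12.
Igfals: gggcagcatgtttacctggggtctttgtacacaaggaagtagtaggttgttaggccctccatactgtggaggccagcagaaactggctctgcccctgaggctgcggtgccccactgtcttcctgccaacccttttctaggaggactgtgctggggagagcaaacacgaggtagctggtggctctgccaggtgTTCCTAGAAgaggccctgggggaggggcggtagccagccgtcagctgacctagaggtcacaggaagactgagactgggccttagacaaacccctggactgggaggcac
Cish: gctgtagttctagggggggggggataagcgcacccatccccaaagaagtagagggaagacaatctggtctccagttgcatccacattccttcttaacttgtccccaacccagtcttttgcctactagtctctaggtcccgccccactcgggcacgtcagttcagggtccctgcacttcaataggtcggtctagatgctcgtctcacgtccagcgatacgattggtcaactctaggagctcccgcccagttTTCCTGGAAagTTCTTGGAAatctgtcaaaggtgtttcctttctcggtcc

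The motif reads the same on both strands, so a match on one is a match on the other. It occurred in 2726 of 32851 promoters of this length (8.3%), and 2582 of 27025 genes with a promoter held it (9.55%). Of 24 genes of the growth hormone and IGF list with a promoter, 4 held it (16.7%), which were Igfals, Cish, Bcl6 and Socs3. The share was no lower in the glucocorticoid and fasting response list described below, at 4 of 21 genes (19.0%), Bcl6 again among them. A match describes letters in a window and is not evidence of binding, and the single Igf1 window held none. Of the genes described next, Sctr, Socs2 and Trp63 are shown by name only.

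Sctr encodes the secretin receptor, a receptor coupled to cyclic AMP that is known in mouse brown fat to stimulate lipolysis and heat production. Its ratios were 0.77, 0.49 and 1.03 in Box1 fat, against 2.8, 3.52 and 2.78 in WT fat. Every Box1 array lay below every WT array, and on the log2 scale the Box1 arrays were spread more widely than the WT arrays. On the log2 scale Sctr averaged −0.45 ± 0.54 in Box1 and 1.59 ± 0.19 in WT (SD, n = 3 arrays each), so it fell by 2.05 ± 0.22, with a 95% interval of −2.53 to −1.56 and a limma adjusted p of 0.038. WT fat was 4.13 times Box1 fat. An exact permutation test over the 6 arrays cannot go below 0.1, and gave 0.1. The call was lost when the first Box1 array (adjusted p = 0.27) or any 1 of the WT arrays was left out, when the 6 arrays were fitted alone, and with quantile normalization or a trended robust variance. It was also lost without the arrays holding muscle transcripts (adjusted p = 0.13) and with marker levels as covariates (adjusted p = 0.054), both chosen after seeing the data.

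Igfals encodes the acid-labile subunit, which holds IGF1 in a long-lived complex in plasma. Its ratios were 0.54, 0.58 and 0.86 in Box1 fat, against 2.31, 4.07 and 2.16 in WT fat. No Box1 array reached the lowest WT array. The highest ratio was that of the second WT array. That array and the second Box1 array had the highest hepatocyte list medians, whose part here was not tested. The difference was −2.08 ± 0.27 and missed the threshold (limma adjusted p = 0.11), while array weights (adjusted p = 0.016) or leaving out the third 569 array (adjusted p = 0.041, an alternative chosen after seeing the data) brought it past. A fit on the average of all probes of each gene also called Igfals and Sctr. Each of them is read by a single probe, so no further probe entered. The adjustment there ran over 19406 genes and not over all probes. That 569 array had an SD of 0.74 over all probes on the log2 scale, against 0.21 to 0.34 in the other fat arrays.

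Igf1, the growth factor itself, had ratios of 0.63, 0.65 and 1 in Box1 fat, against 1.76, 3.08 and 2.02 in WT fat. The groups did not overlap, the second WT array was again highest, and the difference was −1.58 ± 0.72 (limma adjusted p = 1). A further Igf1 probe gave 0.76, 0.72 and 0.86 in Box1 fat, against 2.02, 3.49 and 2.2 in WT fat, a difference of −1.68 ± 0.63. The fit pools the spread of all 5 genotypes, and Igf1 ran from 0.34 to 4.46 in the 569 arrays.

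Cish, a feedback inhibitor of STAT5 signalling, had ratios of 0.96, 1 and 0.52 in Box1 fat, against 1.32, 1 and 5.69 in WT fat. The third WT array was high and the second equalled a Box1 array, so the groups touched (difference −1.30 ± 0.58, limma adjusted p = 1). Without the third WT array the difference was −0.53. Socs2, another such inhibitor, gave 1, 1.38 and 0.54 in Box1 fat, against 1.17, 1.09 and 1.5 in WT fat, and overlapped. Trp63, which encodes the epithelial transcription factor p63, had ratios of 0.84, 0.95 and 1.06 in Box1 fat, against 2.05, 2.3 and 2.18 in WT fat. Its difference of −1.20 ± 0.20 was not called (limma adjusted p = 0.49), and its other probe differed by 0.11. With quantile normalization Trp63 passed (limma adjusted p = 0.038).

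**Figure D3:**
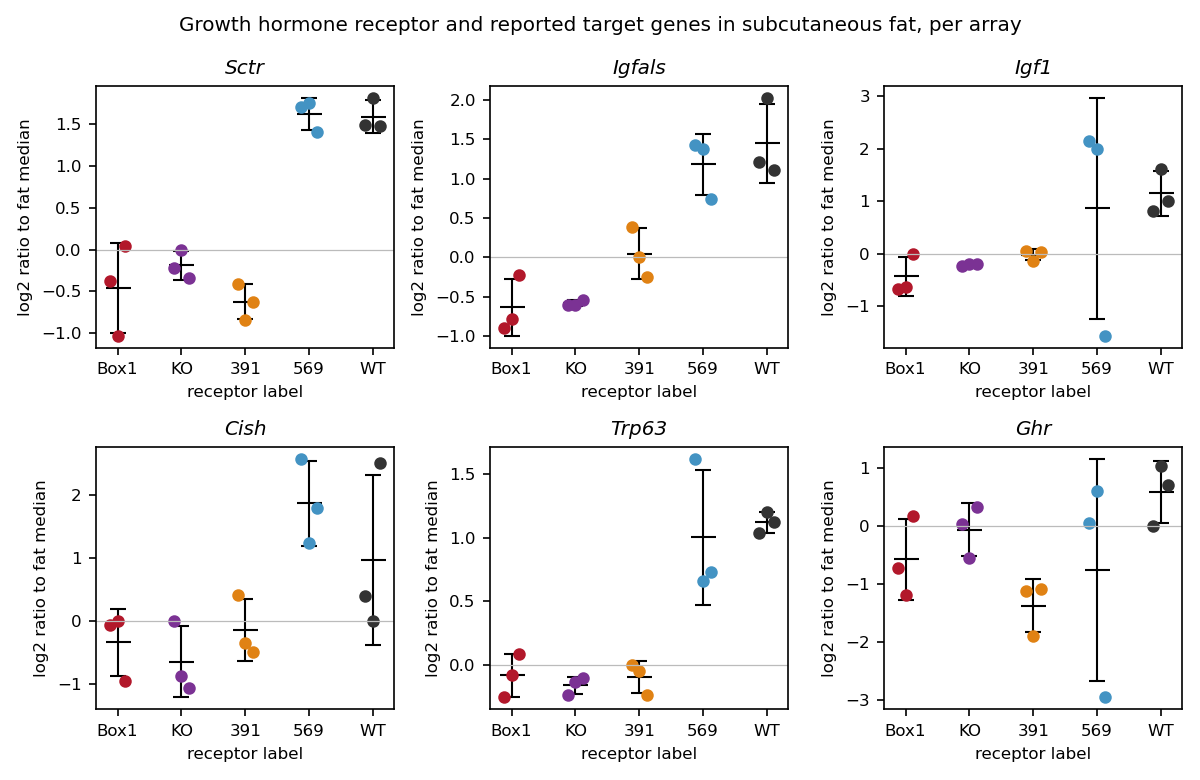
log2 ratio to the fat median (vertical axes) of Sctr, Igfals, Igf1, Cish, Trp63 and Ghr in every fat array, grouped by receptor label (horizontal axes); points are arrays, bars are the mean and SD of 3 arrays. For Sctr, Igfals and Trp63 the Box1 arrays lie with those of KO and 391, and the WT arrays with those of 569.

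Signalling parts of the receptor system were not called. Jak2, the receptor's kinase, had ratios of 1.64, 1.11 and 1 in Box1 fat, against 1.08, 0.76 and 0.97 in WT fat. Stat5a and Stat5b differed by −0.00 and 0.10. Grb10, an adaptor that restrains the insulin and IGF receptors, was 1.54, 1.08 and 1.41 in Box1 fat, against 0.63, 0.93 and 0.54 in WT fat, with every Box1 array above every WT array (0.96 ± 0.33, limma adjusted p = 1). Another 3 Grb10 probes differed by −0.05 to 0.69. Igf1r, the IGF1 receptor, was 1.01, 1.09 and 1.08 in Box1 fat, against 0.83, 0.69 and 0.86 in WT fat. Igfbp3 and Igfbp5, which bind IGF1, overlapped, and Igfbp5 differed by −0.49. Of 25 measured members of the growth hormone and IGF list, 0 were called, and the median difference was −0.00 against 0.03 over all genes. At an unadjusted p under 0.05, 3 were higher and 3 lower, beside 3.71% and 1.44% of all genes.

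Many genes of the glucocorticoid and fasting response stood higher in Box1 fat, though none was called. Glucocorticoids signal through a nuclear receptor that raises many of these genes, and fasting acts on them also through FOXO1 and PPAR alpha. Of 24 measured members, 0 were called by limma, 11 were higher and 0 lower at an unadjusted p under 0.05, beside 3.71% of all genes. Also 11 members had all Box1 arrays above all WT arrays, beside 7.21% of all genes, and 0 had them below. The median difference was 0.78, against 0.03 over all genes, and was 0.52 when all probes of a gene were averaged.

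Fkbp5, a co-chaperone of the glucocorticoid receptor, had ratios of 3.38, 1.04 and 1.36 in Box1 fat, against 0.35, 0.3 and 0.54 in WT fat (2.13 ± 0.50, limma adjusted p = 0.85). Tsc22d3, the glucocorticoid-induced leucine zipper, had 2.64, 0.68 and 1.53 in Box1 fat, against 0.35, 0.36 and 0.51 in WT fat, and a further probe of it differed by 1.29 while the remaining probe differed by −0.04. Hif3a, a hypoxia-inducible factor subunit, had 2.93, 1.24 and 2.05 in Box1 fat, against 0.76, 0.62 and 0.88 in WT fat, while another 3 probes of it differed by −0.11 to 0.17. In these genes the first Box1 array was highest and the groups did not overlap. Pdk4, the kinase that shuts off pyruvate oxidation in fasting, had 2.16, 0.92 and 2.13 in Box1 fat, against 0.83, 0.67 and 0.27 in WT fat. Lpin1, a phosphatidate phosphatase, had 2.01, 0.58 and 1.92 in Box1 fat, against 0.42, 0.6 and 0.35 in WT fat, so its second Box1 array lay within the WT range. Lpin1 was called when that Box1 array was left out (adjusted p = 0.017), and its other probes differed by −0.09 and 0.20.

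Cdkn1a, an inhibitor of cell division, had ratios of 4.12, 1.16 and 1.33 in Box1 fat, against 0.54, 0.57 and 0.41 in WT fat. Foxo1, the fasting transcription factor, had 1.75, 1.24 and 1.29 in Box1 fat, against 0.92, 0.76 and 0.76 in WT fat, and its other probe differed by −0.075. Mt2, a metallothionein, had 5.14, 0.83 and 1.36 in Box1 fat, against 0.35, 0.4 and 0.42 in WT fat. All 3 genes were highest in the first Box1 array. Fgf21, a fasting hormone, had 2.31, 1.56 and 1.04 in Box1 fat, against 0.81, 0.76 and 0.91 in WT fat, and Zbtb16 differed by 0.82 ± 0.29. Sgk1, a kinase raised by glucocorticoids, had 3.04, 0.64 and 1.49 in Box1 fat, against 0.75, 0.72 and 0.8 in WT fat, with the second Box1 array lowest of the 6. Mt2, Fgf21, Zbtb16 and Sgk1 were chosen after their values were seen.

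The list's median by array was 0.88, −0.03 and 0.24 in Box1 fat, against −0.42, −0.26 and −0.54 in WT fat, and 11 of 24 members exceeded 1 in the first Box1 array. Without that array 7 members were higher and 0 lower at an unadjusted p under 0.05, beside 2.37% of all genes, with a median of 0.48. Without the third Box1 array, which held muscle transcripts, 10 were higher, beside 4.08% of all genes, and the median was 0.80. The palindrome ACANNNTGT, the core letters of the glucocorticoid receptor element and the same on both strands, was present in 3 of 21 promoters of the list (14.3%), beside 2135 of 27025 genes (7.9%).

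**Figure D4:**
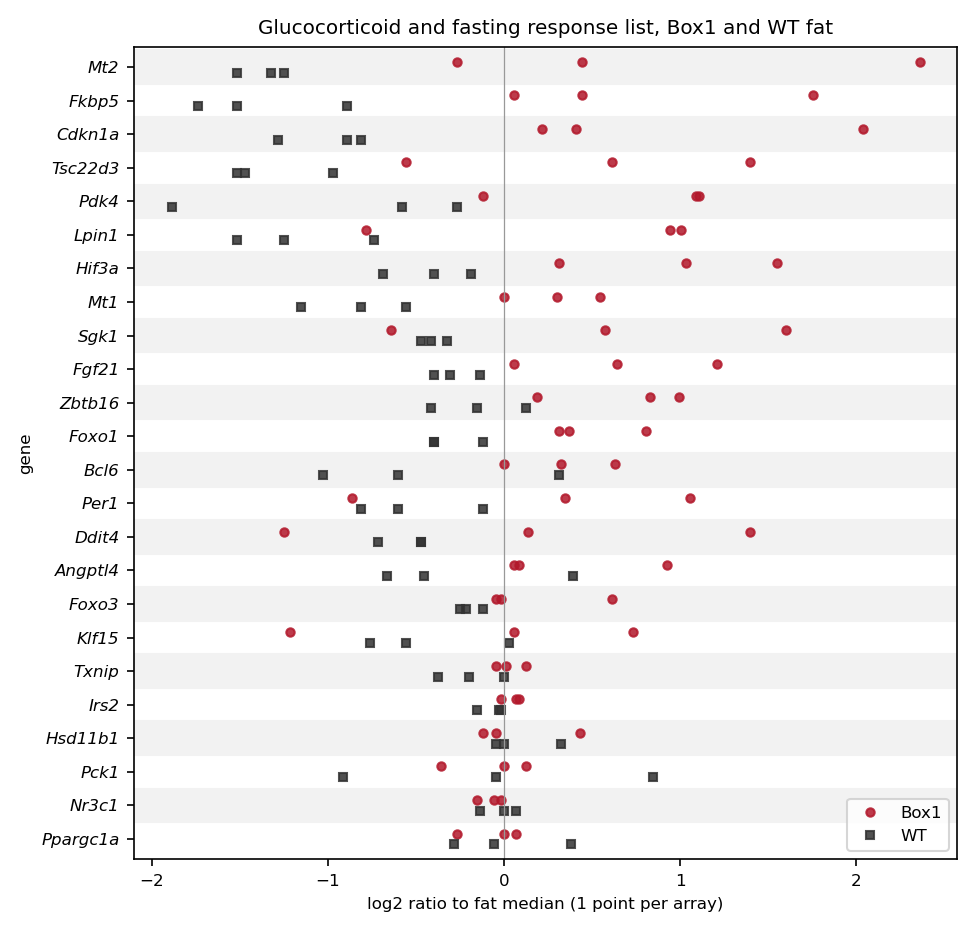
log2 ratio to the fat median (horizontal axis) of the 24 measured glucocorticoid and fasting response genes (rows, ordered by difference) in each Box1 array (red circles) and WT array (black squares). For 11 genes, among them Fkbp5, Mt2, Cdkn1a and Tsc22d3, every red point lies to the right of every black point.

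Immediate early and stress genes, which respond within minutes to handling and hormones, were read beside that list. Of 26 members 0 were called, and 7 had all Box1 arrays above all WT arrays, beside 7.21% of all genes, with 0 all below. At an unadjusted p under 0.05, 3 were higher and 0 lower, beside 3.71% of all genes higher, and the median was 0.17. Without the first Box1 array 1 was higher and the median was 0.00. Their median by array was 0.36, −0.04 and 0.04 in Box1 fat, against −0.11, −0.04 and −0.08 in WT fat, with 7 members over 1 in the first Box1 array and 0 in any other. Klf4 had ratios of 2.45, 1 and 1.98 in Box1 fat, against 0.63, 0.92 and 0.73 in WT fat. Jun and Hspa1b differed by 0.58 and 0.33 with no overlap. The part of these genes in the glucocorticoid list's difference was not tested.

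Clock genes and stress genes of the endoplasmic reticulum were read next. Of 18 clock genes 3 were higher and 0 lower at an unadjusted p under 0.05, beside 3.71% of all genes higher. They were Cry2 (0.88 ± 0.31), Rora (0.89 ± 0.31) and Per2 (0.92 ± 0.40). Without the first Box1 array (2.37% of all genes higher) or without the third WT array 0 were. Cry2 and Rora overlapped between groups. Of 21 endoplasmic reticulum stress genes 4 were higher and 0 lower at that p, beside 3.71% of all genes higher. The list as a whole did not lean, with 12 differences positive and 9 negative. Its median was 0.03, the same as over all genes. Without the first Box1 array 2 were higher, the median was −0.05 and most differences were negative. Herpud1, which serves the breakdown of misfolded proteins, had 1.97, 0.87 and 1.35 in Box1 fat, against 0.84, 0.79 and 0.66 in WT fat. Atf4, the transcription factor of the amino acid response, had 1.93, 0.87 and 1.27 in Box1 fat, against 0.66, 0.8 and 0.56 in WT fat. For both genes all Box1 arrays lay above all WT arrays. The ATF4 targets Trib3 and Chac1 differed by 0.53 ± 0.17 and 1.26 ± 0.51. No clock or endoplasmic reticulum stress gene was called by limma.

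In the lipolysis list the smallest unadjusted p-values belonged to genes that stood lower in Box1 fat, and none was called. Hcar1, the lactate receptor that curbs lipolysis, had ratios of 0.32, 0.83 and 0.57 in Box1 fat, against 1.95, 4.45 and 1.98 in WT fat. Hcar2, the related receptor for ketone bodies and niacin, had 0.35, 0.68 and 0.51 in Box1 fat, against 1.92, 5.36 and 1.56 in WT fat. The groups did not overlap for either gene, and the second WT array was highest. The differences were −2.28 ± 0.76 for Hcar1 and −2.35 ± 0.91 for Hcar2 (limma adjusted p = 1 for both).

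Pnpla3, a lipase and acyltransferase that rises with feeding, had ratios of 0.5, 0.89 and 0.78 in Box1 fat, against 1.87, 2.31 and 1.95 in WT fat, a difference of −1.53 ± 0.46. Gpd1, which makes the glycerol phosphate backbone of triglyceride, had 0.91, 0.89 and 0.77 in Box1 fat, against 1.33, 1.48 and 1 in WT fat. These 4 genes were the members of the lipolysis list with an unadjusted p under 0.05, all lower, of 19 measured and 0 called, beside 1.44% of all genes. The lipases Lipe and Pnpla2 differed by 0.46 and −0.36, both chosen after their values were seen, and overlapped. The list's median was −0.26 and turned to 0.13 with the muscle and lymphocyte marker levels as covariates, an alternative chosen after seeing the data. Without the second WT array it was −0.0027, and 2 members were lower at an unadjusted p under 0.05.

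Of 28 genes of fatty acid synthesis 2 were higher and 1 lower at an unadjusted p under 0.05, and 0 were called. The counts were 1 higher and 6 lower with quantile normalization, beside 5.15% and 3.53% of all genes. Without the third WT array they were 1 higher and 8 lower, beside 2.35% and 2.04%. All Box1 arrays then lay below the remaining WT arrays for 15 genes, beside 1618 of 19406 over all genes. The list's median was −0.22, and −0.41 without that array, whose own median of −0.33 was the lowest of the WT arrays. Without the first WT array the list's median was −0.07. Mlxipl, the carbohydrate-responsive activator of lipogenesis, had 1.27, 1.02 and 1.23 in Box1 fat, against 0.73, 1 and 0.58 in WT fat. Fasn, Dgat1 and Elovl6, which build fatty acids and triglyceride, differed by −1.03, −1.37 and −1.34 without passing, and were chosen after their values were seen. Among fatty acid uptake and droplet genes, Fabp4, the fatty acid carrier of adipocytes, had 0.97, 0.98 and 0.89 in Box1 fat, against 1.28, 2.89 and 1.12 in WT fat. Lpl, which frees fatty acids from lipoproteins, differed by −0.49 ± 0.23, and Plin5, a droplet coat protein, by 0.55 ± 0.25. Of the 23 genes of that list 1 was higher and 0 lower at an unadjusted p under 0.05, and 0 were called.

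Fatty acid oxidation (26 genes), thermogenesis (22) and oxidative phosphorylation (35) had 1, 1 and 0 members higher and 0, 0 and 1 lower at an unadjusted p under 0.05, with 0 called. Ucp3, a mitochondrial carrier induced by fasting, had 1.76, 1 and 2.02 in Box1 fat, against 0.85, 0.71 and 0.43 in WT fat (1.26 ± 0.39). Cpt2, an importer of long-chain fatty acids into mitochondria, differed by −0.73 ± 0.35. Sdhd, a subunit of respiratory complex II, had 0.8, 0.66 and 0.85 in Box1 fat, against 1.35, 1.62 and 0.83 in WT fat, which overlapped. The medians of the 3 lists lay between −0.03 and 0.05. Without the third WT array the median was −0.20 for fatty acid oxidation and −0.23 for oxidative phosphorylation. In the latter list 7 genes were then lower at an unadjusted p under 0.05, beside 2.04% of all genes. Its differences were then negative for 30 of 35 genes, against 17 with all arrays. The third WT array had the lowest WT median for fatty acid oxidation (−0.42) and for oxidative phosphorylation (−0.43). Without the first WT array the medians of these lists were −0.05 and 0.06.

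Products of the adipocyte are given next. Lep, which encodes leptin, had ratios of 2.29, 1.24 and 1.59 in Box1 fat, against 0.52, 0.69 and 0.84 in WT fat (1.30 ± 0.57, limma adjusted p = 1). Npr3, the clearance receptor for natriuretic peptides, had 1.52, 1.15 and 1.24 in Box1 fat, against 0.49, 0.9 and 0.55 in WT fat. Mest, an imprinted gene tied to the growth of fat cells, had 0.26, 1 and 0.85 in Box1 fat, against 2.13, 2.14 and 5.36 in WT fat (−2.26 ± 1.06), while its other probe differed by −0.10. All 3 genes kept the groups apart, with Lep and Npr3 higher and Mest lower. Of 25 measured adipokines and secreted proteins 0 were called, and 1 was higher at an unadjusted p under 0.05.

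Acta1 had the largest positive difference of the 19406 genes. Acta1, the skeletal muscle actin, had ratios of 1.5, 0.72 and 1.94 in Box1 fat, against 0.05, 0.13 and 0.1 in WT fat (3.88 ± 1.03, limma adjusted p = 0.95). Acta2, the smooth muscle actin that also marks activated fibroblasts, had 7.31, 1.58 and 3.03 in Box1 fat, against 0.4, 0.35 and 0.69 in WT fat (2.83 ± 0.66, limma adjusted p = 0.85). Both were separate between groups in every array, the second Box1 array being the lowest of its group. Of the other 4 Acta2 probes, the most distant differed by 2.11, and a pair differed by −0.06 and 0.15.

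The level of Acta1 was read beside the muscle transcripts. Acta1 is itself a member of the skeletal muscle list. Its ratio was 1.5 and 0.72 in the first and second Box1 arrays, where no member of that list exceeded 1 on the log2 scale, and the part of muscle tissue in its difference was not tested. Without the third Box1 array 10 of 34 skeletal muscle genes were positive and their median was −0.10, against 33 of 34 and 1.81 with it. Mylk, the myosin light chain kinase, had 2.08, 1.19 and 1.41 in Box1 fat, against 0.74, 1.05 and 0.77 in WT fat. Synpo2, an actin-bundling protein, had 0.95, 1.16 and 2.26 in Box1 fat, against 0.34, 0.31 and 0.45 in WT fat. Of 16 smooth muscle and pericyte genes 0 were called. At an unadjusted p under 0.05, 3 were higher and 0 lower, beside 3.71% and 1.44% of all genes. Myh11, Tagln and Cnn1, markers of smooth muscle chosen after their values were seen, differed by 0.05, 0.07 and 0.04.

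Thbs2, a matrix protein of fibroblasts, had ratios of 4.9, 1.84 and 2.11 in Box1 fat, against 0.5, 0.54 and 0.59 in WT fat (2.30 ± 0.69, limma adjusted p = 1). Col14a1 and Mfap5, a fibril-associated collagen and a microfibril protein, differed by 1.04 ± 0.50 and 0.96 ± 0.53 with no overlap. Of 31 collagen and matrix genes, 7 had all Box1 arrays above all WT arrays and 2 all below, beside 7.21% and 3.38% of all genes, while 1 had an unadjusted p under 0.05 and 0 were called. That count of 1 became 8 higher and 2 lower with the 6 arrays alone, beside 5.87% and 2.01% of all genes. It was 8 higher and 0 lower without the third 569 array, beside 6.56% and 2.32%. Timp4, Timp3 and Mmp11, 2 inhibitors and 1 member of the matrix proteases, differed by 1.03 ± 0.39, 1.02 ± 0.42 and 0.80 ± 0.37. They were the 3 of 24 in their list that were higher at an unadjusted p under 0.05, beside 3.71% of all genes. This count was 0 without the first Box1 array (2.37% of all genes) or the first WT array (2.68%). Among progenitor and fibroblast markers, Bmp4, a signal for adipocyte commitment, had 1.31, 1.29 and 1.11 in Box1 fat, against 0.87, 0.91 and 0.9 in WT fat (0.47 ± 0.15). With Klf4 it made up the 2 of 23 members that were higher at an unadjusted p under 0.05, beside 3.71% of all genes.

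**Figure D5:**
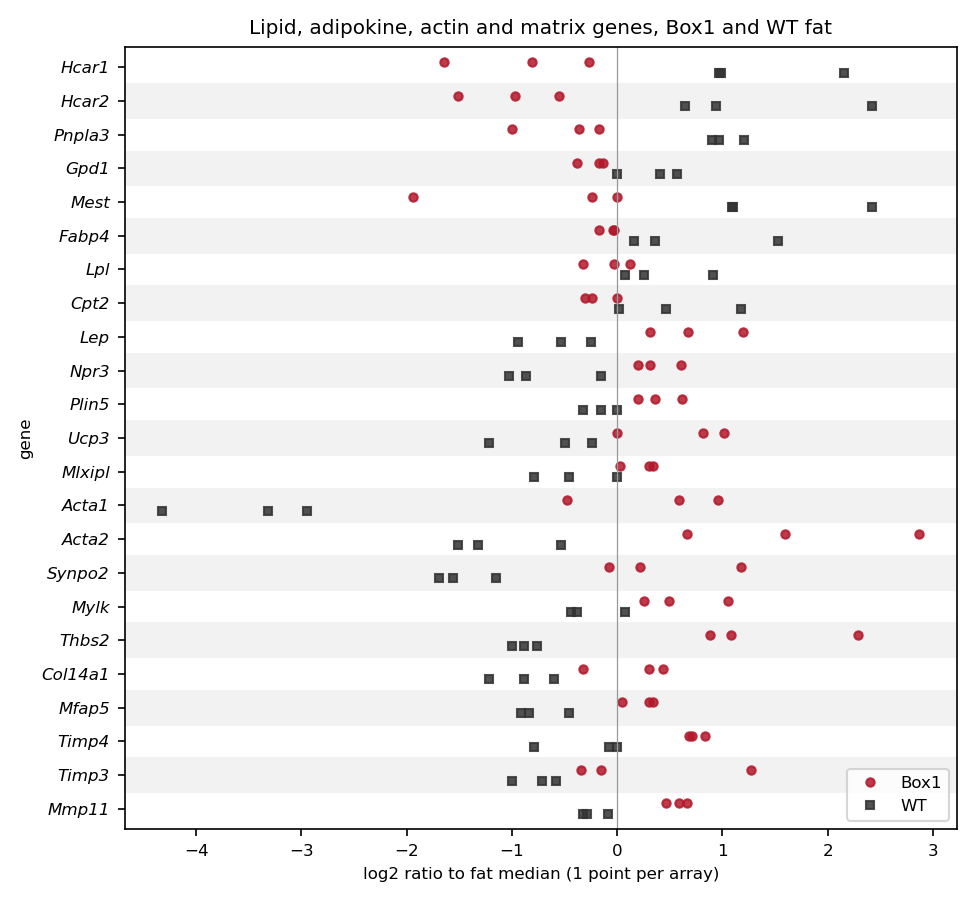
log2 ratio to the fat median (horizontal axis) of 23 lipid, adipokine, actin and matrix genes (rows) in each Box1 array (red circles) and WT array (black squares). Acta1 spans 0.72 to 1.94 as a ratio in Box1 and 0.05 to 0.13 in WT, and Hcar1 and Hcar2 lie lower in every Box1 array.

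Endothelial markers leaned to the higher side. Flt4, a receptor of lymphatic endothelium, had 1.25, 1.18 and 0.91 in Box1 fat, against 0.79, 0.83 and 0.84 in WT fat, and was the 1 of 19 members with an unadjusted p under 0.05. Kdr, the main VEGF receptor, differed by 0.23 ± 0.11. The difference was positive for 16 of 19, beside 11198 of 19406 over all genes, and the median was 0.28. By array the median was 0.34, 0.00 and 0.10 in Box1 fat, against −0.18, 0.19 and −0.34 in WT fat, which overlapped.

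Interferon-response and antigen-presentation genes leaned to the lower side, with a median of −0.29. Of their differences 31 of 34 were negative, beside 8208 of 19406 over all genes. None was called, and 1 was lower and 0 higher at an unadjusted p under 0.05, beside 1.44% of all genes lower. With quantile normalization 6 were lower, beside 3.53% of all genes. Without the first Box1 array, the third Box1 array or the third WT array 0 were lower. H2-K1, a class I presentation molecule, had ratios of 1.12, 1 and 0.38 in Box1 fat, against 1.5, 1.6 and 1.44 in WT fat. Rsad2, an antiviral enzyme, had 1.02, 0.67 and 0.69 in Box1 fat, against 1.13, 1.62 and 1.41 in WT fat. Both were separate between groups, and Cxcl10, a T cell attractant, differed by −0.41 ± 0.18 with overlap. The third Box1 array, low in lymphocyte transcripts, had a list median of −0.51 against 0.00 and 0.06 in the other Box1 arrays. Without it 21 of 34 differences were negative and the median was −0.10.

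Of the 27 lymphocyte, 29 macrophage and 19 neutrophil and mast cell markers, 0 were called and 0 had an unadjusted p under 0.05 by limma in the fit of 15 arrays. With the 6 arrays alone 7 macrophage markers were higher at that p, beside 5.87% of all genes, and without the third 569 array 3 were, beside 6.56%. Nkg7, a cytotoxic cell gene, had 1, 1.03 and 0.2 in Box1 fat, against 1.66, 0.95 and 1.78 in WT fat. In the acute phase and complement list 0 of 21 were called and 1 was lower at an unadjusted p under 0.05. Cfb, complement factor B, had 1, 1.08 and 0.71 in Box1 fat, against 1.51, 2.07 and 1.74 in WT fat, and every Box1 array lay below every WT array.

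Detoxification enzymes leaned higher. Aldh1a1, which makes retinoic acid, had ratios of 2.54, 1.14 and 1.53 in Box1 fat, against 0.67, 0.95 and 0.57 in WT fat. Gstm1, a glutathione transferase, had 1.48, 1.18 and 1.19 in Box1 fat, against 0.57, 0.91 and 0.5 in WT fat. Neither gene overlapped between groups, and the difference of Aldh1a1 was 1.20 ± 0.39. Gstp1 was 0.51 ± 0.20 higher, and these made up the 3 of 27 genes at an unadjusted p under 0.05, with 0 lower and 0 called. The count was 7 without the second WT array, beside 4.98% of all genes, and 8 without the third 569 array, beside 6.56%. With all arrays that share was 3.71%. The list's difference was positive for 22 of 27, beside 11198 of 19406 over all genes, and its median was 0.19.

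The insulin and glucose list of 29 genes had 4 higher and 1 lower at an unadjusted p under 0.05, beside 3.71% and 1.44% of all genes. Of them, Pdk4, Foxo1, Trib3 and Gpd1 are given above. In cholesterol synthesis and uptake (21 genes) 1 was lower, Abca1, the cholesterol exporter, at −0.32 ± 0.15. In branched-chain amino acid breakdown (19 genes) 1 was lower, Mccc1, a leucine-degrading carboxylase, with 1, 0.78 and 0.79 in Box1 fat against 1.48, 2.17 and 0.95 in WT fat. Of 27 cytosolic ribosomal proteins 1 was lower, Rpl4, at −0.25 ± 0.09, and of 28 cell cycle genes 1 was higher, Cdkn1a. Cdkn2c, another brake on cell division, differed by −1.26 ± 0.59. None of these genes was called by limma.

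Outside the lists, the genes of smallest unadjusted p that kept the groups apart are given as values. Smim41, a small membrane protein, had ratios of 6.56, 2.42 and 2.42 in Box1 fat, against 0.65, 0.53 and 0.65 in WT fat (2.47 ± 0.40, limma adjusted p = 0.49). Cpne9, a calcium-dependent lipid-binding protein, had 2.51, 1.34 and 2.09 in Box1 fat, against 0.74, 0.67 and 0.82 in WT fat, and its other probe differed by −0.12. Azin2, an inhibitor of the antizyme that limits polyamine synthesis, had 1.38, 1.17 and 1.52 in Box1 fat, against 0.64, 0.76 and 0.63 in WT fat. These 3 were higher in every Box1 array. Prmt5, an arginine methyltransferase, Rbm10, a splicing regulator, and Wipi1, an autophagy protein, differed by 0.52, 0.69 and 1.25, and Ttc1, Tmem65 and Rufy4 by 0.67, 1.12 and 0.98. Other probes of Ttc1 and Rbm10 differed by −0.11 to 0.20.

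On the lower side, Dnajc15, a mitochondrial co-chaperone, had ratios of 0.8, 0.82 and 0.82 in Box1 fat, against 1.33, 1.56 and 1.07 in WT fat. Kcnk2, a potassium channel, had 0.52, 0.57 and 0.6 in Box1 fat, against 1.37, 2.05 and 1.03 in WT fat. Aplnr, the apelin receptor, had 0.62, 1.02 and 0.91 in Box1 fat, against 1.79, 2.43 and 1.38 in WT fat. The Box1 arrays of Dnajc15 and Kcnk2 were close together and the WT arrays wider. Rab9b, Nptn and Ces2f differed by −0.70, −0.50 and −0.45. The other probes of Kcnk2 differed by −0.11, and that of Nptn by 0.14. The adjusted p of these 6 genes lay at 0.69 or above in limma.

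Direct tests against the other receptor mutants used the same fit. Against KO, limma called 0 probes in either direction (0%), and 1202 had an unadjusted p under 0.05. The Box1 minus KO difference was −0.27 for Sctr (95% interval −0.76 to 0.22), −0.05 for Igfals (−0.63 to 0.53) and −0.23 for Igf1 (−1.80 to 1.34). It was −0.14 for Fkbp5 (−1.23 to 0.96), 0.03 for Acta2 (−1.41 to 1.48) and 0.03 for Hcar1 (−1.62 to 1.68). The intervals of Igf1, Fkbp5, Acta2 and Hcar1 admit differences above 2-fold, and none of these intervals shows that Box1 and KO fat act alike. Smallest in unadjusted p were Paip1, a translation factor partner (0.68, from ratios of 1.26, 1.19 and 0.97 in Box1 against 0.73, 0.66 and 0.74 in KO), and Gab2, a docking adaptor (−0.62, from 0.95, 0.94 and 0.99 in Box1 against 1.77, 1.31 and 1.38 in KO). Other probes of Gab2 differed by 0.018 and −0.071.

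Against 391, 3 probes were called higher (0.00643%) and 3 lower (0.00643%). Gdi2, a regulator of Rab proteins, had ratios of 1.26, 1.11 and 0.95 in Box1 fat, against 0.15, 0.09 and 0.1 in 391 fat (3.31, limma adjusted p = 0.015). Pttg1, securin, had 1.09, 0.85 and 0.85 in Box1 fat, against 0.35, 0.31 and 0.28 in 391 fat (1.57, limma adjusted p = 0.015). Abca5, a lipid transporter, had 1.5, 1.1 and 1.36 in Box1 fat, against 0.52, 0.6 and 0.59 in 391 fat (1.20, limma adjusted p = 0.0305). For these genes the 391 arrays were the ones apart, since the WT ratios of Gdi2 were 0.97, 1.16 and 0.56. Other probes of Gdi2 differed from 391 by −0.19 and 0.29, and those of Abca5 by −0.21 and 0.085, none of them called. Adat2, a tRNA deaminase, was lower in Box1 fat at 1.01, 1 and 0.74, against 2.59, 1.91 and 1.9 in 391 fat, and the other lower probes have no gene name here.

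Against 569, limma called 0 probes higher and 2 lower (0.00429%), Sctr and a probe with no gene name. Sctr had ratios of 0.77, 0.49 and 1.03 in Box1 fat, against 3.26, 3.37 and 2.65 in 569 fat (−2.08, limma adjusted p = 0.016). Ehd3, an endocytic protein, was 1.61, 1.27 and 1.36 in Box1 fat, against 0.62, 0.55 and 0.56 in 569 fat, and was not called (adjusted p = 0.2).

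The comparisons of KO, 391 and 569 with WT share the WT arrays, so their values are set side by side only. For Sctr the difference from WT was −2.05 in Box1, −1.78 in KO, −2.22 in 391 and 0.03 in 569. For Igfals it was −2.08 in Box1, −2.03 in KO, −1.40 in 391 and −0.27 in 569. These groups divide as their slides do, with 569 on the slide of WT. For Fkbp5 it was 2.13 in Box1, 2.27 in KO, 0.96 in 391 and 0.96 in 569. For Acta2 it was 2.83 in Box1, 2.80 in KO, 0.41 in 391 and −0.26 in 569, and for Thbs2 2.30 in Box1, 2.63 in KO, 0.43 in 391 and −0.33 in 569. The Acta2 ratios were 4.31, 1.81 and 4.19 in KO and 1, 0.21 and 1.07 in 391. KO and 391 shared a slide and were not tested against each other. The slide and genotype of Box1 cannot be told apart for these genes either.

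The effect of Box1 was also set against the effect of the same label in liver, where the Box1 arrays lay on the same slide as Box1 fat. The difference between tissues passed for 44 probes with a more positive effect in fat (0.0943%) and 25 with a more negative one (0.0536%). Sctr differed by 0.04 in liver, and the fat minus liver contrast was −2.08 ± 0.24 (limma adjusted p = 3.2e-05). In the fit of fat alone its difference had an SE of 0.22 and a limma adjusted p of 0.038. The contrast's fit gave a probe the same spread in both tissues. Its p-values rest on that assumption, which was not tested. Trp63 differed by 0.03 in liver, with a contrast of −1.23 ± 0.23 (adjusted p = 0.018). Smim41 and Cpne9 differed by −0.03 and 0.01 in liver, with contrasts of 2.50 ± 0.42 (adjusted p = 0.0056) and 1.37 ± 0.28 (adjusted p = 0.040). By this fit these 4 genes differed from WT more in fat than in liver, and of them only Sctr was called in fat.

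Igfals and Igf1 differed in the same direction in both tissues, with Igfals at −4.10 in liver and a contrast of 2.02 ± 0.37 (limma adjusted p = 0.014). Igf1 fell by 5.30 in liver, and its contrast of 3.72 missed the threshold (adjusted p = 0.0505). Susd4, a complement regulator, had ratios of 1.3, 1.45 and 1.25 in Box1 fat, against 0.75, 0.81 and 0.81 in WT fat, a difference of 0.75 ± 0.16, and fell by 2.84 in Box1 liver. Its contrast was 3.60 ± 0.28 (adjusted p = 4.2e-08), and its other probe passed at 1.26. Serpina1e and Cyp4a12a, liver genes of male mice that growth hormone controls, fell by 7.02 and 6.68 in liver and differed by −1.10 and −0.58 in fat.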

How the data were processed

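Gene expression was measured on 30 Illumina bead arrays, 15 per tissue, with 3 arrays for each of 5 receptor genotypes. Per the labels' protocols, total RNA came from frozen tissue by a column kit and carried a biotin label. The deposited value is a ratio that the authors formed by dividing a probe by its median over the 15 arrays of a tissue, as read from the values, since that median was 1 for all 46643 probes in fat. Array medians lay between 0.98 and 1.01, and the normalization behind this is not given in the sources used here. Depth has no counterpart on arrays; their number, 3 per group, limits the precision, and signal over background is unknown. No offset was added and no dim probes were removed, because the unit is a ratio and not an intensity.

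Ratios were taken to log2 and fitted with limma 3.58.1 (lmFit, contrasts.fit, eBayes) in R 4.3.3 on the 15 fat arrays, and on 30 arrays for fat minus liver, with two-sided tests and Benjamini-Hochberg adjustment over all probes. The steps were tested on simulated data. In the platform annotation 32794 probes carry 1 symbol, 55 carry more and 13794 are unnamed here; 32722 of the named probes matched the RefSeq table of GRCm38.p6, which also supplied the promoters. Where several probes read a gene, the most variable of them in fat stands for it. Near-identical family members such as Serpina1e and Cyp4a12a may share a probe.

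The members and the 34 gene lists were chosen with earlier results of these data known. A rule chose 177 genes to name, not all of which are described here. It took 10 growth hormone genes and, in each direction, up to 15 called genes (filled up to 10 by the smallest unadjusted p among genes with no overlap). It also took up to 4 members of each list and up to 5 genes each way in the other comparisons, fat minus liver among them. Alternatives were the 6 arrays alone, quantile normalization, median centring, array weights, an offset of 0.1, named probes only, probes near the floor left out (a ratio of 0.05 or less), a trended robust variance and leaving out each array; 3 more, given below, were added after seeing the data.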

Additional observations from a re-analysis of the deposited data

Results flagged for a closer look

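The effect of Box1 against WT differed between fat and liver by limma's interaction test for 69 probes. By the probe that stands for each gene, 10 of the genes described here were among them. The rule chose some genes by this contrast, so that they pass is no further result. Genes not described were also among the 69, such as Sult2a1 at a contrast of −4.56 and Cyp4a12b at 5.42. The contrast, fat minus liver on the log2 scale, was −2.08 for Sctr, −1.23 for Trp63, 2.50 for Smim41, 1.37 for Cpne9, 2.02 for Igfals and 3.60 for Susd4. It was 2.29 ± 0.36 for C6, a complement component (adjusted p = 0.0026, 44 and 25 probes passing in all), 1.81 ± 0.36 for Gstp1 (adjusted p = 0.031), 5.92 ± 0.37 for Serpina1e (adjusted p = 1.2e-09) and 6.10 ± 0.41 for Cyp4a12a (adjusted p = 3.7e-09). C6 had ratios of 1, 1.04 and 0.74 in Box1 fat, against 1.14, 1.22 and 1.64 in WT fat, and fell by 2.82 in liver; its other probe had a contrast of −0.40. The other Serpina1e probe had one of −0.17 and did not pass. Gstp1 differed by 0.51 in Box1 fat and fell by 1.30 in liver. Neither Gstp1 nor Susd4 was called in fat. The ratios of each tissue are relative to its own median, so the contrast compares differences and not levels. The contrast's p-values assume that a probe has the same spread in fat and liver, which was not tested.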

How the results depend on the processing

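No paired analysis was possible because the labels carry no replicate numbers. The call of Box1 against WT (1 probe) became 0 probes with the 6 arrays alone, with a trended robust variance, without the arrays that held muscle transcripts and with marker levels as covariates, and 2 with array weights and without the third 569 array; leaving out each array gave 0 to 2. Against 391 (6 probes) the count was 36 with quantile normalization, 12 with array weights, 3 with named probes, 2 with the trended variance, 13 without the third 569 array, and 0 to 3 leaving out 1 array where it changed. A similar count did not mean the same probes. With the Box1 and 391 arrays alone 6 were called, of which 1 was among the first 6. Without the muscle arrays 4 were called and without the third 391 array 3, and 0 of either were among them. Against KO (0 probes) the count was 1 with the 6 arrays alone. Against 569 (2 probes) it was 0 with the 6 arrays alone and with quantile normalization, 1 with named probes, the trended variance, the muscle arrays out or the covariates, 29 without the third 569 array, and 0 to 29 leaving out 1 array. The probe called with the muscle arrays out was not among the first 2. Fat minus liver (69 probes) gave 109 with the Box1 and WT arrays alone, 132 with array weights, 29 with the trended variance and 113 without the third 569 array. Leaving out the third 569 array, leaving out the muscle arrays and the covariates were chosen after seeing the data. Sctr against WT kept its direction in every alternative listed here and had an adjusted p of 0.0077 to 0.27 leaving out 1 array, and an exact permutation p of 0.1, the smallest possible, at a difference of −2.05. Stat5a against WT, near 0, turned to 0.075 with array weights, 0.11 without the muscle arrays and 0.12 with covariates, and ran from −0.11 to 0.17 leaving out 1 array. Adat2 against WT ran from −0.038 to 0.19 leaving out 1 array. The causes were not tested. Signal over background, which would show what the arrays can detect, is not known.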
